A study of Mus musculus with 8 samples.

Results

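Collagen chain genes encode the alpha chains of the collagens, and they were taken here as every gene whose array probe carries 1 symbol of the form Col, number, a, number. The array named 42 such genes among 19087 genes with a probe, and 37 of them had a value on all 8 arrays, among 15346 such genes. The 37 chains comprised 11 fibrillar chains, 6 chains of basement membrane collagen IV, 2 of collagen VIII, 3 of collagen VI, 1 of collagen VII, 7 fibril-associated (FACIT) chains, 4 transmembrane chains, 2 multiplexins and Col26a1. Livers came from 8-week-old C3H/HeN mice, with 2 arrays for each of 4 groups. Female IL1-beta and male IL1-beta mice were injected intraperitoneally with 25 µg/kg recombinant murine IL1-beta every other day for 2 weeks, female control and male control mice received vehicle on that schedule, and livers were collected 1 h after the final dose. The labels call the 2 arrays of a group biological replicates without naming the animals. Per the labels, each array set liver RNA in Cy5 against Universal Mouse Reference RNA, a pool from 11 mouse cell lines, in Cy3.

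Collagen chains wind around each other in a helix in the endoplasmic reticulum, where prolines and lysines are hydroxylated, and the propeptides of fibrillar collagens are cut off after secretion. Fibrillar collagens then form cross-linked fibres, collagen IV forms the sheet of basement membranes, and FACIT collagens sit on the surface of fibrils. In liver, stellate cells, portal fibroblasts and the cells of vessel walls are known sources of collagens, and collagens I and III are the main constituents of liver scar tissue.

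The arrays did not all behave as labelled. On the 4 IL1-beta arrays the median of 6 hepatocyte markers was 5.91 to 6.24 (log2 ratio of liver over pool), and Xist and the Y-linked genes followed the sex labels. On the 4 control arrays the median of the same markers was -0.43 to 0.26. Over 15346 genes the arrays labelled female control ran opposite to those labelled male control (r = -0.722 and -0.592 between arrays of the same number, -0.519 and -0.478 between arrays of unlike number), and Xist and the Y-linked genes opposed the labels. Over the 37 chains r was -0.806 and -0.501 for the same number, and -0.749 and -0.493 for unlike numbers. The direction of any collagen difference on the control arrays is therefore not settled. It is given below as labelled, female minus male, and also with its sign turned and divided by 2, the form it takes if each control array set 1 sex directly against the other. Because same-number control arrays may hold the same RNA, the standard errors there may be too small.

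On the IL1-beta arrays, collagen ratios of liver over the pool averaged from -4.30 for Col1a1 to 6.07 for Col14a1. Of the 37 chains, 29 differed from the pool at an adjusted p under 0.05 (limma across all genes, Benjamini-Hochberg), beside 78.5% of all genes tested, so the share of chains was that of the background. Of these chains 11 were higher in liver, beside 36.2% of all genes, and 18 were lower, beside 42.3%. The median over chains was -0.59, against -0.11 over all genes tested. Quantile normalization gives every array 1 distribution. The SD over genes was 1.985 to 2.069 on the IL1-beta arrays and 0.662 to 0.744 on the control arrays, so this step narrows the ratios over the pool. After quantile normalization 18 chains passed, beside 53.7% of all genes. The 11 that no longer passed were Col4a3, Col4a4, Col4a6, Col5a3, Col6a4, Col7a1, Col9a2, Col17a1, Col22a1, Col23a1 and Col27a1. These are ratios against cell lines, so they depend on the level of a chain in the pool as well as in liver. The SD over the 4 IL1-beta arrays had a median of 0.294 over chains, from 0.072 for Col6a2 to 1.273 for Col4a3.

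**Figure D1:**
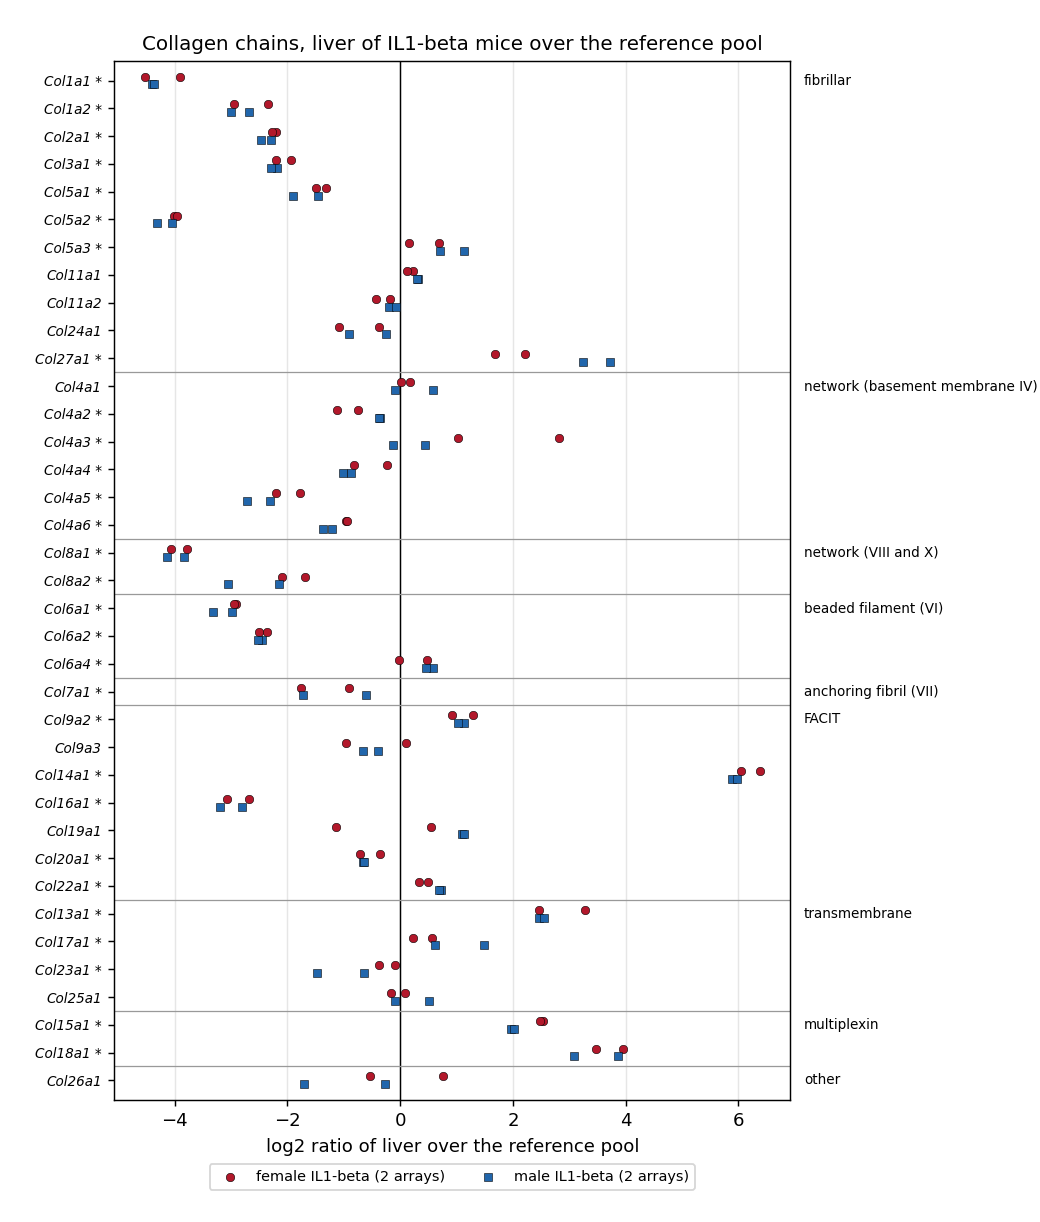
Log2 ratio of liver over the reference pool (x axis) for the 37 collagen chains (y axis, grouped by class) on the 4 IL1-beta arrays; red circles are the 2 female arrays, blue squares the 2 male arrays, and an asterisk marks the 29 chains that differed from the pool at an adjusted p under 0.05. The points of a chain lie close together beside the spread between chains, with Col1a1 near -4.3 and Col14a1 near 6.1.

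Fibrillar chains were mostly below the pool. Col1a1, which with Col1a2 makes collagen I, the main collagen of scar, had ratios of -3.90 and -4.52 in female IL1-beta livers and -4.41 and -4.36 in male IL1-beta livers. Col1a2 had -2.35 and -2.94 in females and -2.68 and -3.00 in males. The ratios of the sexes overlapped for both chains, and both chains were far below the pool on every IL1-beta array (-4.30 ± 0.12, adjusted p = 1.23e-07 by limma, for Col1a1, and -2.74 ± 0.13, adjusted p = 1.17e-06, for Col1a2; ± is the standard error throughout). A second feature of Col1a2, without a value on the control arrays and therefore not in its mean, read -4.22 and -4.68 in females and -4.85 and -5.05 in males. The gap between Col1a1 and Col1a2 thus depends on the feature taken. Col5a2, a chain of collagen V, which sets fibril diameter, stood at -4.02 and -3.95 in females and -4.05 and -4.32 in males. Its partner Col5a1 was at -1.54 ± 0.11 and Col3a1, the chain of collagen III, at -2.15 ± 0.12. The cartilage collagen chain Col2a1 was at -2.31 ± 0.09, a value that rests on 10 near-identical features described below. Of the 11 fibrillar chains, 6 were lower, beside 42.3% of all genes, and 2 were higher, beside 36.2%. The other 3 (Col11a1, Col11a2 and Col24a1) did not pass. The higher pair were Col5a3, the third chain of collagen V, at 0.67 ± 0.23, and Col27a1, a fibrillar collagen of cartilage, at 2.72 ± 0.29. After quantile normalization the adjusted p (limma) was 0.457 for Col5a3 and 0.063 for Col27a1. Col5a3 also missed the threshold without any 1 of the IL1-beta arrays (adjusted p = 0.0506 to 0.148), and 1 of its features stood at -0.04. Col27a1 had 1.69 and 2.21 in female IL1-beta livers and 3.25 and 3.72 in male IL1-beta livers, so its female arrays lay below its male arrays.

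Basement membrane and other network chains were also mostly below the pool. Of the 6 chains of collagen IV, 4 were lower, beside 42.3% of all genes, and 1 was higher, beside 36.2%. Col4a1 and Col4a2, which form the common trimer of basement membranes, stood at 0.17 ± 0.13 (adjusted p = 0.252, limma) and -0.65 ± 0.11. Col4a2 had -1.12 and -0.75 in females and -0.36 and -0.38 in males. Col4a3 and Col4a4, chains of the kidney glomerular trimer, stood at 1.04 ± 0.31 and -0.74 ± 0.13. Col4a3 was the least reproducible chain, with 2.81 and 1.03 in females and 0.44 and -0.13 in males. Col4a5 and Col4a6, the X-linked pair, stood at -2.25 ± 0.19 and -1.13 ± 0.20. Collagen VIII, a network collagen of vessel walls, was low in both chains (Col8a1 -3.95 ± 0.27 and Col8a2 -2.25 ± 0.25). Collagen VI, which forms beaded filaments around cells, had Col6a1 at -3.04 ± 0.10 and Col6a2 at -2.46 ± 0.15, while Col6a4 was at 0.37 ± 0.11. Col7a1, the chain of anchoring fibrils, was at -1.25 ± 0.22.

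The Col4a1 and Col4a2 genes are shown because they lie head to head: in RefSeq (GRCm38.p6) their starts are 21 bases apart on opposite strands. The windows below run from 250 bases before to 50 bases after each start, 5′ to 3′ on the strand of the gene, and capitals mark the 78 bases that both windows hold.
Col4a1, chr8:11312777-11313076, minus strand: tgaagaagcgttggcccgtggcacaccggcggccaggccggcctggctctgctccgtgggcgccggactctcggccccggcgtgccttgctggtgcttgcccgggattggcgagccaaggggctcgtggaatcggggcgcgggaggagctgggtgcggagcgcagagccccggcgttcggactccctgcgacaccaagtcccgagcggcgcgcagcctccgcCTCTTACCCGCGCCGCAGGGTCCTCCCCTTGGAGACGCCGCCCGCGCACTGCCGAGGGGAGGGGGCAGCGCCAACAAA
Col4a2, chr8:11312555-11312854, plus strand: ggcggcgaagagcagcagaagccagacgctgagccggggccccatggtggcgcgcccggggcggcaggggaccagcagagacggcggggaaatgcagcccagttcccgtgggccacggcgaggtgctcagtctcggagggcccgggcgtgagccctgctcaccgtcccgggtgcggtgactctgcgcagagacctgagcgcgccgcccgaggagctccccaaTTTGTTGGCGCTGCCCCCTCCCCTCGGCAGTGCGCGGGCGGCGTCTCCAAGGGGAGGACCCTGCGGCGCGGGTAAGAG
Although the starts are this close, Col4a1 lay above Col4a2 on each IL1-beta array, with 0.17 and 0.01 against -1.12 and -0.75 in females, and -0.08 and 0.58 against -0.36 and -0.38 in males. Col4a1 is the mean of 3 features that differ among themselves, at -0.45, -0.29 and 1.25 on average, so the gap between the chains depends on the feature taken. Col4a5 and Col4a6 are also on opposite strands, with starts 1343 bases apart.

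The highest ratios belonged to FACIT, multiplexin and transmembrane chains. Col14a1, which binds the surface of collagen I fibrils, had 6.05 and 6.38 in female IL1-beta livers and 5.88 and 5.98 in male IL1-beta livers. That is 67.2-fold above the pool (log2 6.07 ± 0.11, adjusted p = 1.72e-08, limma), the largest ratio among the chains. A second feature of Col14a1, measured on 7 arrays and therefore not in this mean, read 4.78 and 3.85 in females and 3.55 and 2.13 in males. Col18a1, the multiplexin whose end fragment is endostatin, had 3.95 and 3.47 in females and 3.09 and 3.87 in males (3.60 ± 0.15), and its 2 features gave nearly the same mean. The other multiplexin, Col15a1, had 2.53 and 2.48 in females and 1.96 and 2.03 in males (2.25 ± 0.19). Col13a1, a transmembrane collagen of cell adhesion sites, stood at 2.69 ± 0.16. Col17a1, the hemidesmosome collagen, stood at 0.73 ± 0.21 and Col23a1 at -0.65 ± 0.16, while Col25a1 did not pass. Among the other FACIT chains Col9a2 (1.09 ± 0.14) and Col22a1 (0.56 ± 0.13) were higher, Col16a1 (-2.95 ± 0.11) and Col20a1 (-0.59 ± 0.10) were lower, and Col9a3 and Col19a1 did not pass. Col26a1 varied from -1.70 to 0.76 and did not pass (adjusted p = 0.210, limma).

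Several values depend on which feature of a chain is read. Of the 37 chains, 19 rest on 1 feature and 18 on the mean of several. Col1a1 and Col2a1 had 12 features each, of which 10 lay within 0.5 log2 of their median on every array, with an SD of 0.023 to 0.107 by array for Col1a1 and 0.028 to 0.155 for Col2a1. The other Col1a1 features gave -2.12 and -2.46 over the pool, and the other Col2a1 features gave 1.30 and -0.07. When the 10 near-identical features were counted once, an alternative added after the data were seen, Col1a1 over the pool was -3.09 ± 0.13 (adjusted p = 7.9e-07, limma) and Col2a1 -0.55 ± 0.11 (adjusted p = 0.00252, limma). Features of 6 of the 18 chains passed in both directions over the pool: Col2a1, Col4a1, Col4a6, Col5a1, Col6a4 and Col11a2. For Col4a6 these were -3.63 and 1.38, and for Col5a1 -3.75 and 0.66, so the mean of these chains describes none of their features. Only 1 of 2 features passed alone over the pool for Col17a1 (1.36 beside 0.09) and Col23a1 (-1.51 beside 0.21). The same held for Col4a4 (-1.364 beside -0.115) and Col5a3 (1.38 beside -0.04).

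**Figure D2:**
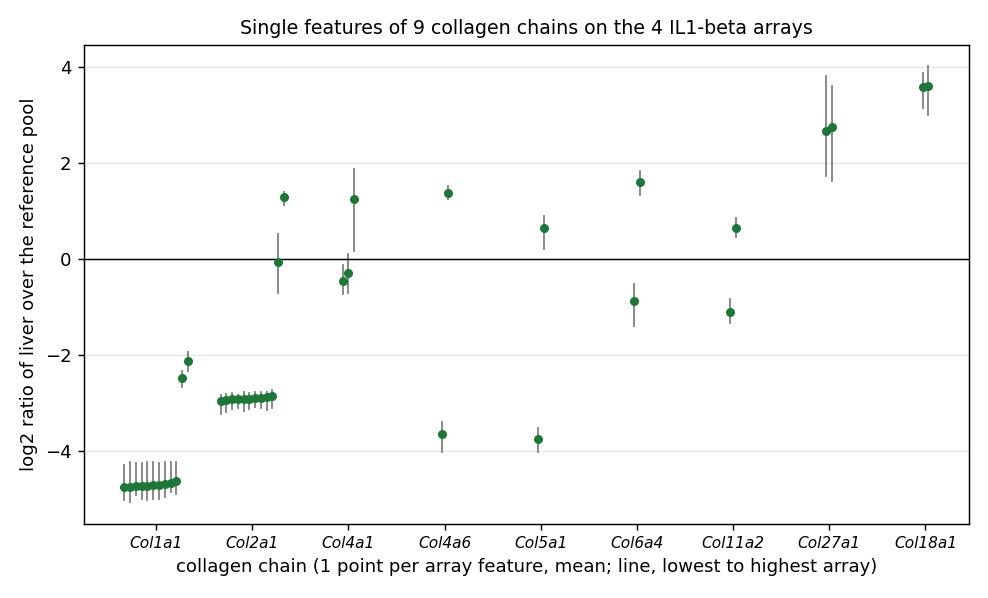
Log2 ratio of liver over the reference pool (y axis) for single array features of 9 collagen chains (x axis); each point is the mean over the 4 IL1-beta arrays and its line runs from the lowest to the highest array. The 10 near-identical features of Col1a1 and of Col2a1 lie level, while Col4a6 and Col5a1 each have 1 feature below -3 and 1 above 0.

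The question of a sex difference under IL1-beta was answered within the IL1-beta arrays, where labels and sex markers went together. No chain passed for female minus male (0 of 37, limma), beside 0.163% of all genes, and 4 chains had an unadjusted p under 0.05, beside 8.28% of all genes. The median difference over the chains was 0.12, against -0.01 over all genes. Collagen I was nearly level between the sexes, with Col1a1 at 0.17 ± 0.25 and Col1a2 at 0.19 ± 0.25. The 4 chains were Col4a3 at 1.77 ± 0.61, Col4a2 at -0.57 ± 0.21, Col27a1 at -1.53 ± 0.59 and Col23a1 at 0.83 ± 0.33. Their adjusted p-values from limma were 0.471 to 0.562. The 2 features of Col23a1 differed, at 1.73 and -0.08. The Col27a1 ratios of both female arrays were below those of both male arrays, and the Col4a3 ratios of both female arrays were above them. The female and male arrays did not overlap for 18 of the 37 chains, beside 36.8% of all genes. With 2 arrays a sex, a missed threshold does not show that the sexes had equal levels.

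More chains passed between the labelled sexes on the control arrays than under IL1-beta, as did more of all genes (21.4% against 0.163%). If each control array set 1 sex directly against the other, the labelled difference is the sex difference taken 2 times. Counts in the 2 comparisons are then not on 1 scale. As labelled, 18 of 37 chains passed for female minus male (limma), beside 21.4% of all genes: 15 were lower in the arrays labelled female control, beside 12.1%, and 3 were higher, beside 9.3%. The median over the chains was -0.78 as labelled, against 0.04 over all genes, and it was 0.39 when turned and divided by 2, so that a chain lower in the female-labelled arrays has a positive value in that form. The labelled sexes did not overlap for 30 of 37 chains, beside 67.4% of all genes. In bulk liver, fewer cells of a type and less RNA per cell cannot be told apart. With 1 value for each same-number pair of control arrays in place of 2 arrays, 8 chains passed, all among the 18: Col1a1, Col1a2, Col2a1, Col3a1, Col5a2, Col5a3, Col6a1 and Col15a1. In that form 7.08% of all genes passed. Without male control replicate 1 the count was 11, beside 9.88%.

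Fibrillar chains made up 9 of the 18, and 11 fibrillar chains were tested, beside 21.4% of all genes that passed. Col1a1 had ratios of -2.37 and -2.12 in the female-labelled control arrays and 2.52 and 2.36 in the male-labelled ones, a gap of -4.68 ± 0.25 (adjusted p = 0.000107, limma). Turned and divided by 2, this is 2.34 ± 0.12, or 5.06-fold. With the near-identical features counted once it was 1.74 in that form (adjusted p = 0.000514). Col1a2 had -1.27 and -1.02 in the female-labelled arrays and 1.67 and 1.61 in the male-labelled ones, which is 1.39 ± 0.13 turned and divided by 2 (adjusted p = 0.000994, limma). Col5a2 had -1.28 and -2.54 in the female-labelled arrays, against 1.44 and 0.81 in the male-labelled ones, or 1.51 ± 0.21 turned and divided by 2. Col3a1 was at 0.70 ± 0.12 and Col5a1 at 0.44 ± 0.11 in that form. Of their 2 features each, only 1 passed alone, at 1.00 beside 0.40 for Col3a1 and 0.79 beside 0.09 for Col5a1. Col5a1 kept its call in 14 alternatives and lost it in 8. Col2a1 was at 0.65 ± 0.09 but at 0.27 with the near-identical features counted once, where it no longer passed (adjusted p = 0.124, limma). The 3 chains that ran the other way were all fibrillar. Col5a3 had 2.17 and 0.77 in the female-labelled arrays and -1.28 and -0.82 in the male-labelled ones (-1.26 ± 0.23 turned and divided by 2). Col27a1 had 2.07 and 0.33 in the female-labelled arrays, against -1.86 and -0.92 in the male-labelled ones (-1.30 ± 0.29), and Col11a2 stood at -0.39 ± 0.11. Of these, Col11a2 was near the threshold (adjusted p = 0.0455, limma): it missed it in 16 of 23 alternatives, among them median centring (0.0507), pair means (0.177) and each array left out, and neither of its features passed alone. Col27a1 missed it without female control replicate 1 (0.0673) or male control replicate 1 (0.113), and Col5a3 without male control replicate 1 (0.0625). Thus 2 chains of collagen V, Col5a1 and Col5a2, were on one side of 0 and the third, Col5a3, on the other.

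Promoter windows of 4 fibrillar chains are shown because they lie on opposite sides in this comparison: Col1a2 and Col3a1 were lower, and Col5a3 and Col27a1 higher, in the arrays labelled female control. They are RefSeq sequences (GRCm38.p6), from 250 bases before to 50 after the start, 5′ to 3′ on the strand of the gene. Capitals mark the CCAAT box, searched as CCAAT on either strand, so that a match on the other strand reads ATTGG.
Col1a2, chr6:4505368-4505667, plus strand: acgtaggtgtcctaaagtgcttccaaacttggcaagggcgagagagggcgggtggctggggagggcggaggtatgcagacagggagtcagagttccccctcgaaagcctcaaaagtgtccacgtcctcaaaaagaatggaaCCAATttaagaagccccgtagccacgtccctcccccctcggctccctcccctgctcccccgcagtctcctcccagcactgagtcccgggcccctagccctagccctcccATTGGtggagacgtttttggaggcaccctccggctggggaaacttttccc
Col3a1, chr1:45311288-45311587, plus strand: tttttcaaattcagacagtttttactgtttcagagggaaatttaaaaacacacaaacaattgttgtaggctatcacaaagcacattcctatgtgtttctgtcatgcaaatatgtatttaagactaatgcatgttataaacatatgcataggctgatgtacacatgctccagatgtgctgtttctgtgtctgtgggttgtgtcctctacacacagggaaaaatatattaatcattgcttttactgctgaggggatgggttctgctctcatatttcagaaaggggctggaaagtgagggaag
Col5a3, chr9:20815018-20815317, minus strand: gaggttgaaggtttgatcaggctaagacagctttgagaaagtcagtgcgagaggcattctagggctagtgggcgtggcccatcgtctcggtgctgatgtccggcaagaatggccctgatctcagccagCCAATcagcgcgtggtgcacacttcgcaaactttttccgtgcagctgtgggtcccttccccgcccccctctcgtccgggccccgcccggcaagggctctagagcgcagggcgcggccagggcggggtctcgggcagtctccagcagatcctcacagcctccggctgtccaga
Col27a1, chr4:63215162-63215461, plus strand: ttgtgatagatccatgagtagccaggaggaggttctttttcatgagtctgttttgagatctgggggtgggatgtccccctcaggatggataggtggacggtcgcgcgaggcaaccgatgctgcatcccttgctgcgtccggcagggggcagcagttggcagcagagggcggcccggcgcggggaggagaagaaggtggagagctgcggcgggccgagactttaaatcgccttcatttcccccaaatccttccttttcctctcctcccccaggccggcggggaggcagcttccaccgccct
Col1a2 had 2 matches, Col5a3 had 1, and neither Col3a1 nor Col27a1 had one in this window. Of the 37 chains 29 had a window in the table, 31 windows in all. CCAAT was found in 12 of 31 windows (38.7%), beside 37.4% of all 32851 promoter windows. The GC box, GGGCGG on either strand, was found in 21 of 31 (67.7%), beside 35.7%. The TATA box, TATAAA on either strand, was found in 4 of 31 (12.9%), beside 13.6%. A match is a description of letters and not evidence of a bound site.

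Other classes had fewer chains that passed on the control arrays. In collagen VI, Col6a1 had -1.11 and -1.35 in the female-labelled arrays and 1.53 and 1.37 in the male-labelled ones (1.34 ± 0.10 turned and divided by 2, adjusted p = 0.000504, limma), and Col6a2 was at 0.59 ± 0.15. Col8a1 was at 1.23 ± 0.27, Col15a1 at 1.05 ± 0.19, Col16a1 at 0.76 ± 0.11 and Col14a1 at 0.67 ± 0.11 in the same form. In collagen IV, Col4a6 was at 0.75 ± 0.20 and Col4a2 at 0.50 ± 0.11, and the other 4 chains did not pass. Col4a6 kept its call in 10 alternatives, missed the threshold in 11 and changed sign in 1. Col6a2 kept its call in 13 alternatives and lost it in 9, Col8a1 in 16 and 6, and Col4a2 in 18 and 5. Of 2 features each, only 1 passed alone for Col6a2, Col8a1, Col15a1, Col4a6 and Col4a2. Turned and divided by 2, the features were 2.07 and 0.39 for Col8a1, and 1.58 and 0.52 for Col15a1. The 3 features of Col4a1 ranged from -1.83 to 1.91 as labelled and passed in both directions. Col26a1, outside the main classes, had -2.16 and -1.71 in the female-labelled arrays and 1.26 and 1.95 in the male-labelled ones (1.77 ± 0.29 turned and divided by 2, adjusted p = 0.00836, limma). None of the 4 transmembrane chains passed, nor did Col7a1, Col18a1 or Col8a2.

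**Figure D3:**
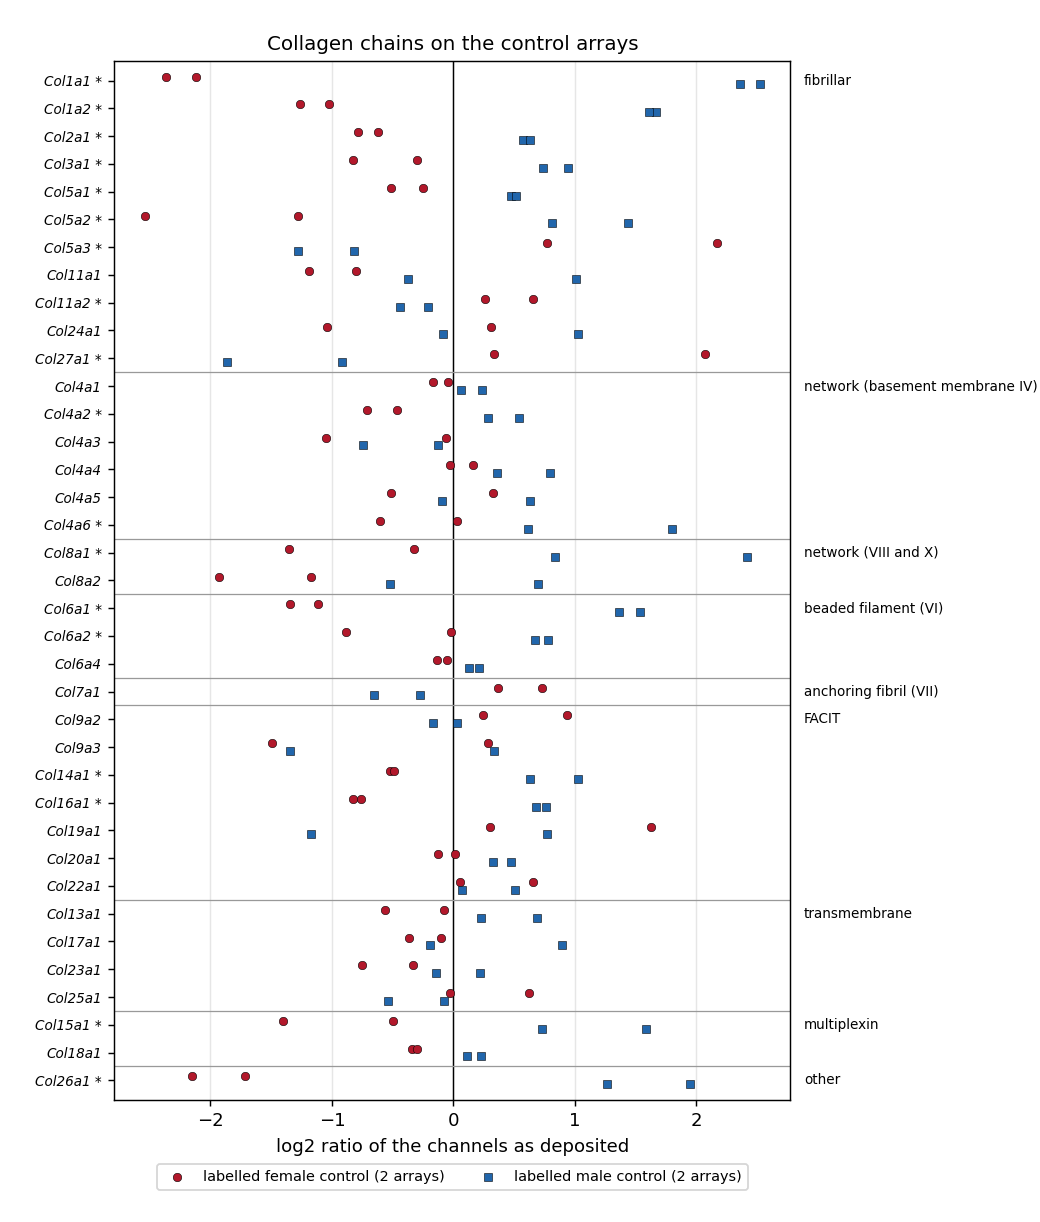
Log2 ratio of the channels as deposited (x axis) for the 37 collagen chains (y axis, grouped by class) on the 4 control arrays; red circles are the 2 arrays labelled female control, blue squares the 2 labelled male control, and an asterisk marks the 18 chains that passed between them. For Col1a1 the circles lie below -2 and the squares above 2, and Col5a3, Col11a2 and Col27a1 are the chains with an asterisk whose circles lie to the right.

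Set side by side, the sex difference under IL1-beta and that on the control arrays, turned and divided by 2, had the same sign in 30 of 37 chains (81.1%), beside 60.8% of all genes. The 2 comparisons share no array. Over the chains Pearson's r was 0.501 and Spearman's rho 0.528 (n = 37 chains of the same livers, which are not independent). Among the 18 chains that passed on the control arrays the sign was shared by 17 (94.4%), beside 74.1% of genes that passed there. The exception was Col4a2, at -0.57 under IL1-beta and 0.50 on the control arrays. The sizes differed: over those 18 chains the median size was 0.21 under IL1-beta and 0.90 on the control arrays, where they were chosen for being large. Col1a1 was at 0.17 ± 0.25 and 2.34 ± 0.12, whereas Col27a1 was at -1.53 ± 0.59 and -1.30 ± 0.29. The difference between these differences, tested in the same fit, passed for no chain (0 of 37, limma), beside 0.209% of all genes, and 8 chains had an unadjusted p under 0.05, beside 10.3% of all genes. Col1a1 came closest, at -2.17 ± 0.28 (adjusted p = 0.0513), and counting its near-identical features once gave -1.65 (adjusted p = 0.127). After quantile normalization 4 chains passed, beside 4.09% of all genes, all with a lower value under IL1-beta. That step gives the narrower control arrays the same spread as the IL1-beta arrays. It thereby enlarges control differences beside those under IL1-beta, so neither this count nor its direction is read as a result.

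**Figure D4:**
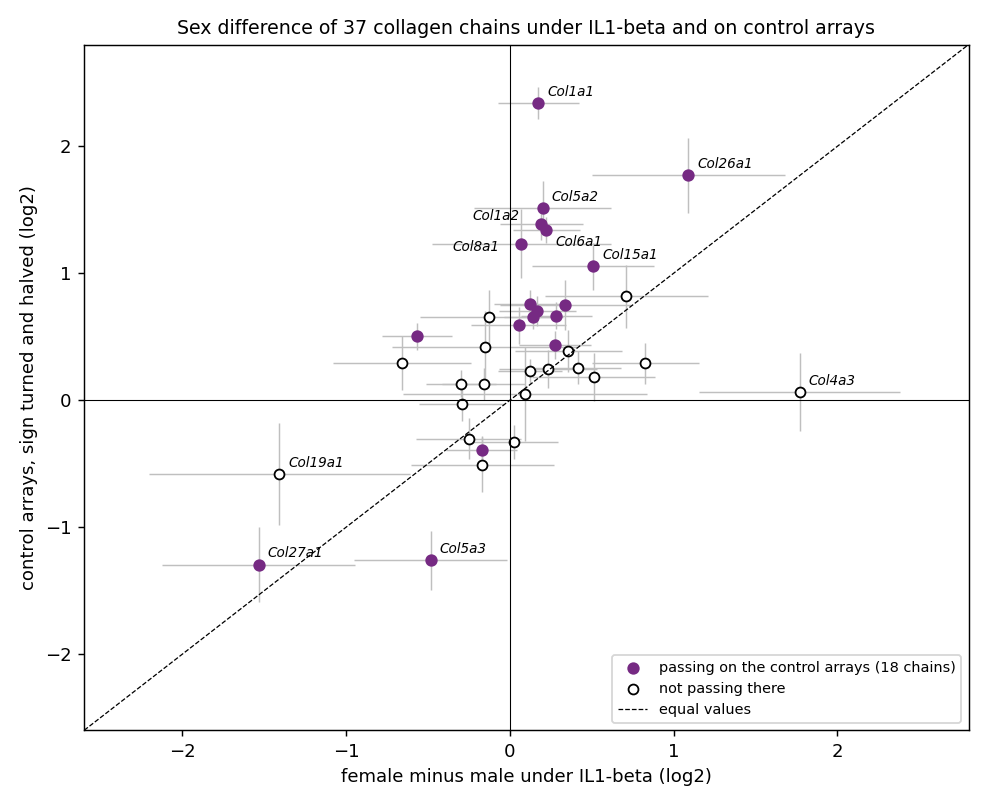
Female minus male under IL1-beta (x axis, log2) against the control difference with its sign turned and divided by 2 (y axis, log2) for 37 collagen chains; bars are standard errors, filled points passed on the control arrays, and the dashed line marks equal values. Most filled points lie above the line and near 0 on the x axis, with Col1a1 highest, and Col27a1 lies close to the line.

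The study's own contrast of IL1-beta with control sets unlike arrays against each other, since hepatocyte markers were high on the IL1-beta arrays and near 0 on the control arrays. As labelled and averaged over the sexes, 24 of 37 chains passed (limma), beside 69.2% of all genes: 7 were higher under IL1-beta, beside 31.6%, and 17 lower, beside 37.6%. The extremes were Col14a1 at 5.91 ± 0.15 and Col1a1 at -4.40 ± 0.18, close to their ratios over the pool of 6.07 and -4.30. When the control ratios were taken with the opposite sign, 26 chains passed, beside 71.3% of all genes, 21 of them among the 24. The interaction of sex and treatment as labelled passed for 12 chains, beside 14.3% of all genes, 10 with a positive value, beside 8.61%, and 2 with a negative one, beside 5.65%. It holds the labelled sign of the control arrays, and with that sign turned 4 chains passed, beside 3.66% of all genes. The labelled count fell without any 1 IL1-beta array, female control replicate 1 or male control replicate 1, and the share over all genes fell there too. These values therefore carry the liver-over-pool ratio or the unsettled sign and are not read as an effect of IL1-beta on collagen genes.

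The genes that build, cut and bind collagens were taken from 6 lists, and their values on the control arrays are given turned and divided by 2, positive for genes lower in the female-labelled arrays. Beside every count below, the shares over all genes were 36.2% higher and 42.3% lower than the pool, and 12.1% lower and 9.3% higher in the female-labelled control arrays. Of 18 tested genes for chain folding and modification, 5 were higher and 12 lower in IL1-beta liver than in the pool. Serpinh1, the collagen chaperone HSP47, stood at -3.72 ± 0.11, and the collagen galactosyltransferase gene Colgalt2 at 5.16 ± 0.13. Over the pool, higher and lower genes numbered 4 and 2 of 7 for propeptide processing, 2 and 10 of 13 for cross-linking and fibril assembly, 2 and 11 of 13 for breakdown, 3 and 5 of 9 for receptors and 3 and 14 of 18 for regulators. The receptor counts were close to the shares over all genes. In the folding list 6 genes were lower and 1 higher in the arrays labelled female control than in those labelled male control. Serpinh1 and the lysyl hydroxylase gene Plod2 were both at 0.95, and Colgalt2 was at -0.61. Of 7 propeptide processing genes 2 were lower and 1 higher there, with the enhancer Pcolce at 0.81 and the protease Mep1b at -1.90. Of 13 cross-linking and fibril assembly genes 7 were lower and none higher. The lysyl oxidases Lox (1.65) and Loxl1 (1.63) and the small leucine-rich proteoglycan Aspn (2.59) had the larger values. Aspn read -6.54 ± 0.12 over the pool and was the only gene of these 6 lists to pass in the difference between the sex differences (adjusted p = 0.0374, limma). Of 13 collagen breakdown genes, a list that also holds protease inhibitors, 7 were lower and none higher in the arrays labelled female control. They were the proteases Mmp3 (2.19), Mmp2 (1.11) and Mmp14 (0.93), and otherwise protease inhibitors of the Timp family, among them Timp1 (0.58). Mmp8, the neutrophil collagenase, stood at 6.05 ± 0.28 over the pool and did not pass between the labelled sexes. Of 9 collagen receptor genes 4 were lower, Cd44 (1.34), Ddr1 (1.01), Gp6 (0.86) and Ddr2 (0.73). Of 18 regulators of collagen genes 2 were lower, Tgfb3 (1.56) and Pdgfra (0.54), and Pdgfa (-0.48) was higher, which is about the share over all genes. No gene of the 6 lists passed for female minus male under IL1-beta.

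Among markers of cell types that make or accompany collagen, some in each list passed on the control arrays, all in the same labelled direction as Col1a1; over all genes 12.1% were lower in the female-labelled arrays and 9.3% higher. Of 8 portal fibroblast and mesothelium markers 6 were lower in the arrays labelled female control, with list medians of -1.14 and -0.61 there and 1.86 and 0.85 on the arrays labelled male control. Of 10 stellate cell markers 5 were lower, with medians of -0.45 and -0.32 against 0.68 and 0.54. All 6 adipocyte markers were lower, with medians of -2.91 and -3.25 against 0.91 and 4.17. Fibroblast markers, which share Thy1 with the portal list, were lower for 6 of 7, Kupffer cell markers for 4 of 6, sinusoidal endothelium markers for 3 of 7, bile duct markers for 2 of 4 and hepatocyte markers for 1 of 6, the last near the share over all genes. No marker of these 8 lists passed as higher, although the bile duct markers Epcam (0.30 as labelled) and Sox9 (0.65) and the hepatocyte marker Apoa1 (0.06) had the opposite sign. Under IL1-beta no marker passed between the sexes. The part of these cell types in the collagen differences was not tested. On the IL1-beta arrays, stellate cell markers had medians of 2.40 and 2.03 in females and 1.71 and 1.79 in males. Of these 10 markers 8 were above the pool, beside 36.2% of all genes. The other 2, Des (-1.72) and Pdgfrb (-1.75), were below it, beside 42.3%. Portal fibroblast and mesothelium markers had medians of -2.67 and -2.42 in females and -2.48 and -2.57 in males. Of these 8 markers 6 were lower than the pool and none higher, and Eln (0.02) and Gli1 (0.15) did not pass. This was not particular to the portal list, since fibroblast markers were lower for 6 of 7 and bile duct markers for 3 of 4. Hepatocyte markers were higher for 6 of 6, sinusoidal endothelium markers for 6 of 7 and Kupffer cell markers for 5 of 6. Of 6 adipocyte markers 2 were higher and 1 lower.

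Of the 42 collagen genes 5 were not tested, because no feature had a value on all 8 arrays: Col9a1 had 1 on 7 arrays, Col6a6 on 5, Col12a1 on 3, and Col10a1 and Col28a1 on 2 each. Col6a3, Col6a5 and Col21a1 had no probe naming them alone and were not analysed here.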

How the data were processed

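Per the labels, liver RNA extracted with Trizol was hybridised in Cy5 with the reference pool in Cy3 on Agilent 2-colour arrays. The values deposited by the authors are log10 ratios of Cy5 over Cy3, with the base read from the values. The submitters' processing notes name Agilent Feature Extraction. How background and dyes were corrected is not given in the sources used here, and channel intensities were not analysed, so signal over background is unknown. Each log10 ratio was multiplied by 3.32 to give log2. An exact 0 was taken as no measurement. Of 45018 features, 33653 carry 1 symbol, 56 several and 11309 none in the platform annotation; 26218 had a symbol and a value on all 8 arrays and were averaged by gene.

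Group means were fitted with limma 3.58.1 (R 4.3.3), with eBayes on 4 residual and 2.88 prior degrees of freedom, two-sided tests and Benjamini-Hochberg adjustment over 15346 genes at 0.05. The fit was tested on simulated data. The labels do not say that replicate numbers pair arrays across groups. Deviations of same-numbered arrays correlated at -0.407 between the IL1-beta groups and -0.43 between the control groups. The control groups run opposite to each other, so their same-numbered arrays may share RNA, which pair means address. Any chain could be named, and up to 4 passing members of each list with the smallest p. The chains, lists and comparisons were chosen with earlier results of these data known. Alternatives changed normalization, zeros, features, filters, moderation, weights, blocks, samples and thresholds. P-values measure the spread between arrays, which may be partly technical.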

Additional observations from a re-analysis of the deposited data

Results flagged for a closer look

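For 12 chains the IL1-beta effect in females minus that in males, taken as labelled, passed at an adjusted p under 0.05 (limma), beside 14.3% of all genes. It contains the control difference in its labelled sign, whose direction is not settled, and turning the control ratios changed the sign of all 12 values, of which 3 still passed (Col1a1, Col1a2 and Col6a1). In 10 chains the labelled value was positive, beside 8.61% of all genes. Among the fibrillar chains it was 4.85 for Col1a1, 2.97 for Col1a2, 1.45 for Col2a1, 1.57 for Col3a1 and 3.23 for Col5a2. It was 2.90 for Col6a1 of collagen VI, 1.61 for Col14a1 and 1.64 for Col16a1 among FACIT chains, 2.61 for the multiplexin Col15a1 and 4.63 for Col26a1. In 2 fibrillar chains it was negative, beside 5.65% of all genes, at -3.01 for Col5a3 and -4.13 for Col27a1. With each group at 2 arrays, no array was tested for standing apart within its group.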

How the results depend on the processing

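Counts are of 37 collagen chains, with the share over all genes in brackets where the genes tested were the same. Leaving out the genes of lowest mean ratio on the IL1-beta arrays removed chains such as Col1a1 and Col1a2. Falls in that setting therefore include chains that were not tested and are not all lost calls. Over the pool, 29 chains passed (78.5%), 18 after quantile normalization (53.7%) and 15 with the genes of lowest ratio left out. Without any 1 IL1-beta array the count and the share were lower. On the control arrays 18 passed, 11 with exact zeros kept, 10 with the feature of highest mean ratio, 7 with the genes of lowest ratio left out, 9 with only the control groups fitted, 8 with pair means, and 11 to 16 without 1 array; the 11 came without male control replicate 1. The sex difference under IL1-beta stayed at 0 in every alternative run. The difference of the sex differences was 0 (0.209%), but 4 after quantile normalization (4.09%). It was 1 with array weights (0.189%), at an adjusted p under 0.10 (0.489%) and with the median of features (0.267%). IL1-beta against control was 24 (69.2%), and 10 with the genes of lowest ratio left out. The interaction as labelled was 12, 5 with zeros kept, 5 with the genes of lowest ratio left out, 19 at an adjusted p under 0.10, 4 with the control signs turned, and 4 to 14 without 1 array. With the feature of highest mean ratio the sign turned over the pool for Col23a1 (0.21), Col2a1 (1.30), Col4a6 (1.38) and Col5a1 (0.66), and on the control arrays for Col2a1 (0.089) and Col4a6 (0.62). The cause was not tested. A replicate block gave 30 (76.7%), 15 (15.9%), 0 (0.117%), 0 (0.0%), 24 (66.4%) and 10 (9.01%) in the order above and moved no count by over 1.5 times. A crossed block exchanged the replicate numbers of the male control arrays only. It gave 17 (19.1%), 0 (0.15%), 0 (0.156%), 24 (68.3%) and 12 (12.3%) for all but the pool comparison. The IL1-beta arrays kept their numbers there, so a crossed pairing of them was not tested. Testing every feature, the median of features, near-identical features counted once, the crossed block and turned signs were added after seeing the data. Signal over background, which would limit low ratios, is unknown.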
